A study of Homo sapiens with 4 samples.

Results

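USB1, LARP7, HTATSF1, LEO1, NKAP and SLU7 are 6 genes whose proteins act in the maturation of small nuclear RNAs, in elongation by RNA polymerase II or in pre-mRNA splicing. They were chosen by symbol because the ratio of immunoprecipitate to input was high for them in these same data, out of 3905 genes that the deposited tables list. All 6 are present in both tables. The ratios, levels and ranks below are therefore a description of the chosen genes and no test of them.

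The study profiled RNA recovered with an antibody against YTHDF3, a cytoplasmic protein that binds mRNA carrying N6-methyladenosine (m6A). There were 4 libraries of 1 each: the immunoprecipitate (IP) and the input from a SiHa line labelled as YTHDF3 knockout, then the IP and the input from SiHa. SiHa is an established human cervical carcinoma line, and no drug or other treatment is named for either line. The labels do not say whether the knockout is a single clone or how it was made. With 1 library per group no value has a replicate error. In RNA immunoprecipitation sequencing (RIP-seq) the transcripts that come down with a protein are read beside the RNA before precipitation. A transcript is called recovered when the IP exceeds the input by a set cut-off. Recovered genes are listed here for the line labelled as knockout too. The listed genes are therefore not read as bound by YTHDF3, and whether their recovery depends on YTHDF3 was not tested.

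For the knockout 2340 genes are listed and for SiHa 3648 genes, and 2083 genes are in both tables. The tables hold only genes that the authors called higher in the IP, which was 21.2% of 11034 genes tested in the knockout and 27.0% of 13529 genes tested in SiHa. A gene missing from a table was either not called or not tested there, and its level in that line is unknown. YTHDF3 itself appears in the SiHa table but not in the knockout table, which does not measure the transcript left in the knockout. Of 6 markers of squamous or simple epithelium, 0 are listed in the knockout table and 4 (KRT8, KRT18, EPCAM and CDH1) in the SiHa table. Of 14 markers of fibroblasts, leukocytes, endothelium and neurons, only the neuronal MAP2 is listed, in both tables. The level columns carry no unit, and it is not known whether they are per length, so no gene is called more or less abundant than another. The column used as IP is the one whose name lacks the word input, and its lane does not match the sample title in the knockout and has no counterpart in SiHa. This doubt applies to every IP level below.

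As background, the spliceosome is built from small nuclear RNAs, among which U6 forms the catalytic core, and each has to be cut to the right 3′ end and stabilised before it works. A further small nuclear RNA, 7SK, holds the kinase P-TEFb inactive. When P-TEFb is released it phosphorylates paused RNA polymerase II, which then travels with elongation factors such as the PAF1 complex, while splicing takes place on the growing transcript. Of the 6 genes, USB1 and LARP7 act on U6 and 7SK, HTATSF1 and LEO1 link to elongation, and SLU7 and NKAP to splicing. m6A is placed on nascent mRNA in the nucleus, and YTHDF3 is known for its part in the translation and decay of methylated mRNA in the cytoplasm.

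USB1 is a phosphodiesterase that trims the 3′ end of U6 RNA, and its loss causes poikiloderma with neutropenia. The gene (ENSG00000103005) lies on chromosome 16 at 57999603 to 58021618 (GRCh38.p14). Its level was 207 in the knockout IP and 8.03 in the knockout input, against 88.0 in the SiHa IP and 6.88 in the SiHa input. The IP stood far above the input in both lines, by 25.8 times in the knockout and 12.8 times in SiHa. On the log2 scale of IP level over input level this is 4.69 in the knockout and 3.68 in SiHa, and USB1 ranked 1 in both tables. The first 1070 bases of USB1 overlap the zinc finger gene ZNF319 on the opposite strand, which is listed in neither table. Whether the authors' counting used strand is not given, so reads in such a stretch, here and in the overlaps named for other genes below, cannot be assigned to 1 of the 2 genes.

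LARP7 is a La-related protein that binds the 3′ end of 7SK RNA and keeps P-TEFb in the inactive particle, and it also guides 2′-O-methylation of U6. The gene (ENSG00000174720) lies on chromosome 4 at 112637143 to 112657586. Its level was 156 in the knockout IP and 7.93 in the knockout input, against 42.7 in the SiHa IP and 7.30 in the SiHa input. The 2 inputs were close, while the knockout IP was 3.65 times the SiHa IP. The log2 ratio of IP to input was 4.30 in the knockout and 2.55 in SiHa, at rank 3 and rank 41. Within LARP7 RefSeq places MIR302CHG, the host transcript of the miR-302 and miR-367 hairpins, on the opposite strand. Neither it nor any of the 4 LARP7 pseudogenes (LARP7P1 to LARP7P4) is listed in either table.

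HTATSF1, first described as a cofactor of HIV-1 Tat, binds the U2 snRNP protein SF3B1 and has been linked to both elongation and splicing. The gene (ENSG00000102241) lies on chromosome X at 136497229 to 136512346. Its level was 190 in the knockout IP and 11.0 in the knockout input, against 73.7 in the SiHa IP and 9.70 in the SiHa input. Both IPs were above both inputs. The log2 ratio was 4.11 in the knockout (rank 6) and 2.93 in SiHa (rank 13). A processed copy of the gene on chromosome 6, HTATSF1P2, is also listed in the knockout table, with a level of 7.79 in the IP and 2.29 in the input and a log2 ratio of 1.77. It is not listed in SiHa. Reads of a gene and of its near-identical copy can be split in counting, so the HTATSF1 values are uncertain to that extent.

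LEO1 is a subunit of the PAF1 complex, which travels with RNA polymerase II and is needed for histone modification along transcribed genes. The gene (ENSG00000166477) lies on chromosome 15 at 51938025 to 51971778. Its level was 69.9 in the knockout IP and 5.88 in the knockout input, against 69.0 in the SiHa IP and 8.72 in the SiHa input. The 2 IP levels were alike, and the knockout input was the lower of the 2 inputs. The log2 ratio was 3.57 in the knockout and 2.98 in SiHa. RefSeq places the non-coding gene LOC112268148 on the opposite strand over 9271 bases of LEO1, and it is listed in neither table. LEO1 was the lowest of the 6 genes in the knockout (rank 83) and second to USB1 among them in SiHa (rank 11).

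SLU7 is a zinc knuckle protein that helps the spliceosome choose the 3′ splice site in the second catalytic step. The gene (ENSG00000164609) lies on chromosome 5 at 160401641 to 160419081, and no other RefSeq gene overlaps it. Its level was 163 in the knockout IP and 10.3 in the knockout input, against 67.9 in the SiHa IP and 9.63 in the SiHa input. The log2 ratio was 3.99 in the knockout (rank 12) and 2.82 in SiHa (rank 16).

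NKAP was named for activation of NF-kappaB, and acts as a corepressor of Notch target genes and as a splicing factor. The gene (ENSG00000101882) lies on chromosome X at 119920672 to 119943751. Its level was 48.8 in the knockout IP and 2.56 in the knockout input, against 13.1 in the SiHa IP and 2.88 in the SiHa input. The inputs were near each other and the knockout IP was 3.73 times the SiHa IP. The log2 ratio was 4.25 in the knockout and 2.19 in SiHa, which put NKAP at rank 5 in the knockout and rank 189 in SiHa, its lowest place. A stretch of 45 bases is shared with AKAP14 on the opposite strand, which is listed in neither table. The related genes NKAPL, NKAPD1 and NKAPP1 are listed in neither table.

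**Figure D1:**
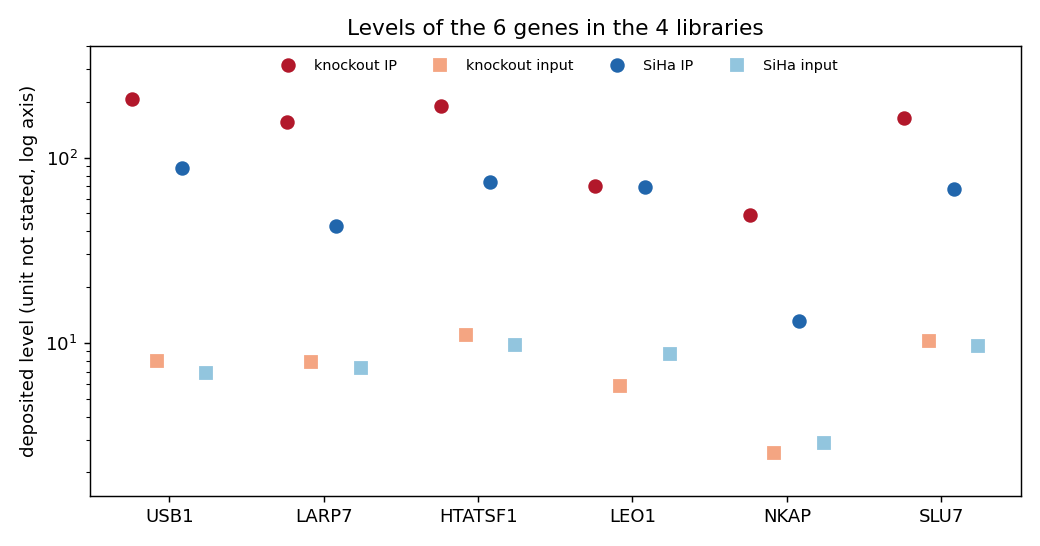
Deposited level (log axis, unit not stated) of each of the 6 genes in the knockout IP, knockout input, SiHa IP and SiHa input, 1 point per library. Each IP point lies above both input points of its gene, and the 2 IP points of LEO1 nearly coincide at 69.9 in the knockout and 69.0 in SiHa.

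The 6 genes kept to the upper end of both tables, by the choice that was made. Their log2 ratios spanned 3.57 to 4.69 in the knockout with a median of 4.18, and 2.19 to 3.68 in SiHa with a median of 2.87. Over all listed genes the median was 1.61 in the knockout and 1.04 in SiHa. In the knockout all 6 had an IP level at least 8 times the input level, as did at least 2.38% of the genes tested there. In SiHa only USB1 of the 6 did, among at least 0.0739% of the genes tested. These shares count listed genes only, since the levels of the other tested genes are unknown. The order of the 6 genes differed between the lines below USB1. It ran USB1, LARP7, NKAP, HTATSF1, SLU7 and LEO1 in the knockout, and USB1, LEO1, HTATSF1, SLU7, LARP7 and NKAP in SiHa. HTATSF1 stood just above SLU7 in both. Since no spread between cultures is known, it cannot be said which neighbours in either order differ beyond it.

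**Figure D2:**
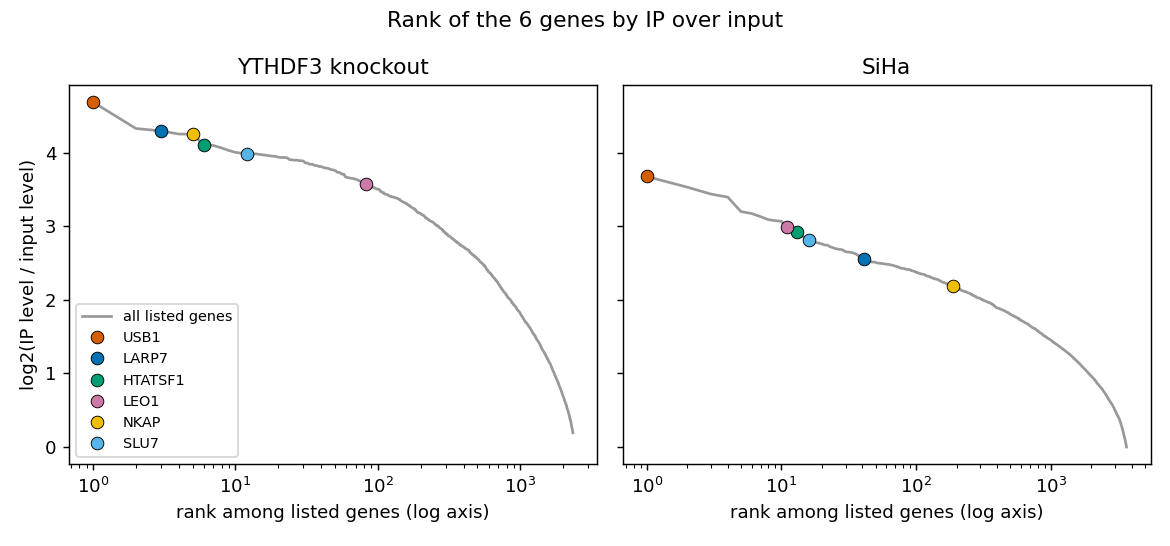
Log2 of IP level over input level against rank (log axis) for all listed genes (grey line) and the 6 genes (points), in the knockout (left) and SiHa (right). USB1 is at rank 1 in both, while LEO1 moves between rank 83 in the knockout and rank 11 in SiHa, and NKAP between rank 5 and rank 189.

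The log2 ratio was higher in the knockout than in SiHa for all 6 genes, as it was for 72.9% of the 2083 genes listed in both tables. Whether recovery in either line depends on YTHDF3 was not tested. The difference in log2 ratio, knockout minus SiHa, was 2.07 for NKAP, 1.75 for LARP7, 1.18 for HTATSF1, 1.17 for SLU7, 1.01 for USB1 and 0.59 for LEO1. The median over all genes listed in both tables was 0.37. Among those genes the difference of NKAP was in place 20 and that of LARP7 in place 57, whereas LEO1 was in place 821. The 6 genes were chosen for high ratios in these data, so these places are no test of them. The knockout table and the SiHa table were scaled separately, and their lists start at unlike ratios. With each table centred on the median of its listed genes, the differences were 1.49 for NKAP, 1.17 for LARP7, 0.60 for HTATSF1, 0.59 for SLU7, 0.43 for USB1 and 0.009 for LEO1.

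For 5 of the 6 genes the difference lay mostly in the IP. The knockout IP level exceeded the SiHa IP level in all 6, against 44.6% of the genes listed in both tables. For LEO1 it did so by only 1.01 times. The genes were chosen for a high IP over input, so this count and the input count below are no test of them. The log2 difference in IP level was 1.90 for NKAP, 1.87 for LARP7, 1.37 for HTATSF1, 1.26 for SLU7 and 1.24 for USB1, but 0.019 for LEO1. The median over the genes listed in both was -0.12. Except for LEO1, input levels differed less than IP levels. The log2 difference in input level, knockout minus SiHa, was 0.22 for USB1, 0.18 for HTATSF1, 0.12 for LARP7 and 0.091 for SLU7. It was -0.17 for NKAP and -0.57 for LEO1. The input level was thus higher in the knockout for 4 of the 6, against 24.7% of the genes listed in both, whose median was -0.52. When centred on the medians of the genes listed in both, the input differences were larger, at 0.75 for USB1, 0.71 for HTATSF1, 0.65 for LARP7 and 0.62 for SLU7, and that of NKAP turned to 0.36. The IP differences of these genes were then 1.36 for USB1, 1.49 for HTATSF1, 1.99 for LARP7, 1.38 for SLU7 and 2.02 for NKAP, each still above the input difference. For LEO1 the deposited levels differed in the input and hardly in the IP, whereas the centred differences were -0.046 for the input and 0.14 for the IP.

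**Figure D3:**
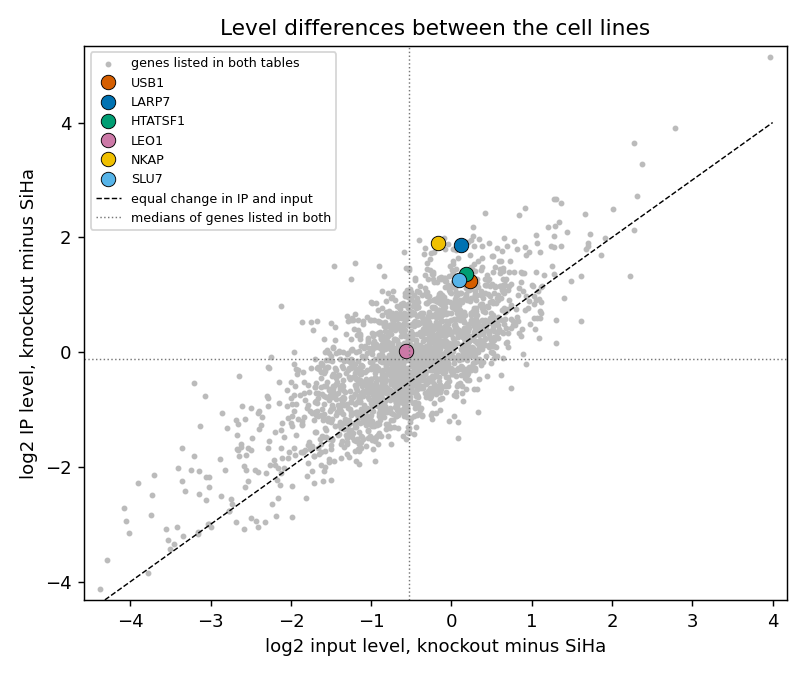
Log2 difference in IP level against log2 difference in input level, knockout minus SiHa, for the 2083 genes listed in both tables (grey) and the 6 genes (coloured). The dashed line marks equal change in IP and input and the dotted lines the medians of -0.12 (IP) and -0.52 (input). All 6 genes lie above the dashed line, with 5 of them at an IP difference of 1.24 to 1.90 and LEO1 at 0.019.

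The genes most like each member were those at the smallest Euclidean distance in log2 level over the 4 libraries, among the genes listed in both tables. The levels that chose the members enter this distance, so it is a description. It sets deposited levels of different genes side by side, and would change if they were rescaled per length. HTATSF1 and SLU7 were each other's nearest gene, at a distance of 0.27. USB1 was nearest to the same pair, at 0.73 to HTATSF1 and 0.79 to SLU7. After HTATSF1, the nearest gene to SLU7 was CDC73, the PAF1 complex subunit parafibromin, at 0.61, with a level of 158 in the knockout IP and 13.9 in its input, against 61.2 in the SiHa IP and 12.6 in its input. After SLU7, the nearest to HTATSF1 was METAP2, a methionine aminopeptidase, also at 0.61. LARP7 was nearest to EIF2S2P4, a processed pseudogene whose reads may come from EIF2S2, at 0.52, and to the small ribosomal subunit assembly factor NOP14 at 0.69. LEO1 was nearest to CEBPZ at 0.41 and to the chromatin protein gene ARID4B at 0.44. The IP levels of CEBPZ were 78.8 in the knockout and 58.9 in SiHa. NKAP was nearest to PIBF1, a centrosomal protein gene, at 0.37 and to MSL3, of the histone acetylating MSL complex, at 0.59. PIBF1 shared the rank pattern of NKAP, at rank 29 in the knockout and rank 190 in SiHa.

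The upstream sequences of 3 genes are shown for HTATSF1 and SLU7, the pair of members at the smallest distance, and for the highest gene, USB1, which has 2 annotated starts. Each line is the 100 bases before a RefSeq start (GRCh38.p14), written 5′ to 3′ on the strand of the gene. Capitals mark the matches to any of 5 promoter motifs, on either strand. The motifs were the GC box (GGGCGG), the ETS core (CCGGAAG), the cyclic AMP response element (TGACGTCA), the CCAAT box (CCAAT) and the TATA box (TATAAA).
USB1, first start, chr16:57999503-57999602, plus strand: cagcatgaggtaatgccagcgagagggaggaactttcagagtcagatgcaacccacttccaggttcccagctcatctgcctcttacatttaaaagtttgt
USB1, second start, chr16:58001307-58001406, plus strand: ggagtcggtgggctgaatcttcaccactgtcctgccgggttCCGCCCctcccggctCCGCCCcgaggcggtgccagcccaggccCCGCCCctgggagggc
HTATSF1, chrX:136497129-136497228, plus strand: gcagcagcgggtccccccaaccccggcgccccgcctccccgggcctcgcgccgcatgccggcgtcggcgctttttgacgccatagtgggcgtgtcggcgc
SLU7, chr5:160419082-160419181, minus strand: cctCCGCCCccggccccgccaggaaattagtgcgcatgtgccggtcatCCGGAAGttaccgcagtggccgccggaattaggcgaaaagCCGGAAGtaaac

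The windows differed among the genes. The second USB1 start had 3 GC boxes in reverse orientation and a GC content of 76%, while the first had no match and 48%. SLU7 had 1 GC box and 2 ETS cores, and HTATSF1 had no match at a GC content of 78%. Over the 8 windows of the 6 genes, the GC box was in 2, and the ETS core, the CCAAT box (LARP7) and the TATA box (NKAP) in 1 each, with 0 holding the cyclic AMP response element. Among 35116 RefSeq windows of the same length the shares were 31.3% for the GC box, 5.61% for the ETS core, 1.17% for the cyclic AMP response element, 18.1% for the CCAAT box and 4.99% for the TATA box. These are letter matches in DNA, and RIP-seq does not measure promoters.

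The related complexes were read from 9 gene lists, given here without the 6 genes. A list share counts every gene of the list, tested or not. The shares over all genes count tested genes only, so they are not strictly alike. The lists were chosen with earlier results of these data known, and the 6 genes for their high ratios. The shares, and the places of the 6 genes beside their lists, are therefore a description and no test, here and in the paragraphs below. For the PAF1 complex, the same 4 of the 5 other subunit genes (80%) were listed in each table. Of all genes tested, 21.2% were listed in the knockout and 27.0% in SiHa. The log2 ratios of these 4 subunit genes had a median of 3.09 in the knockout and 2.24 in SiHa. CDC73 stood at 3.51 in the knockout and 2.28 in SiHa, and RTF1, which couples the complex to histone ubiquitination, at 3.39 and 2.35 in the same order. The scaffold subunit gene CTR9 was at 2.80 in the knockout and 2.20 in SiHa, and PAF1 at 1.84 and 1.76. All 4 were above the median of all listed genes in both lines, and below LEO1 in both. The subunit gene SKIC8 was listed in neither table.

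Around 7SK, 1 of 6 other genes was listed in the knockout and 3 in SiHa. These are 16.7% and 50%, beside 21.2% and 27.0% of all genes tested in the same order. HEXIM1, which inhibits P-TEFb within the 7SK particle, had a log2 ratio of 1.78 in the knockout and 1.66 in SiHa. The cyclin T genes CCNT1 (1.03) and CCNT2 (0.57) were listed in SiHa alone. The P-TEFb kinase gene CDK9, the 7SK capping enzyme gene MEPCE and HEXIM2 were listed in neither table. LARP7, which was chosen for a high ratio, was the highest of the listed 7SK genes in both lines.

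For U6 maturation, 3 of 11 other genes were listed in the knockout (27.3%, beside 21.2% of all genes tested) and 4 in SiHa (36.4%, beside 27.0%). SSB, which encodes the La protein that holds new U6 transcripts, was at 3.77 in the knockout (rank 49) and 1.87 in SiHa (rank 421). SART3, which aids the rejoining of U6 with U4, was at 2.73 in the knockout and 2.03 in SiHa. Of the genes for the LSM ring around the U6 tail, only LSM3 was listed, at 1.62 in the knockout and 0.88 in SiHa. METTL16, the enzyme that methylates U6, was listed in SiHa alone at 0.73. The genes for small nuclear RNA transcription, 3′ end processing by Integrator and assembly by the SMN complex had 9 of 36 listed in the knockout and 12 of 36 in SiHa. These shares are near those of all genes tested, though untested genes of this list could not be left out. The listed ones had a median log2 ratio of 1.21 in the knockout and 0.92 in SiHa, under the median of all listed genes in both. TGS1, which methylates the cap of small nuclear RNAs, led them at 2.78 in the knockout and 1.78 in SiHa.

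Of 20 other elongation factor genes, 13 were listed in the knockout (median log2 ratio 2.44) and 14 in SiHa (1.78). The listed shares were 65% and 70%, beside 21.2% and 27.0% of all genes tested in the same order. SUPT16H, a subunit of the histone chaperone FACT, was highest at 3.63 in the knockout and 2.48 in SiHa. IWS1 followed at 3.59 in the knockout and 2.39 in SiHa, and its partner SUPT6H at 3.02 and 1.97 in the same order. The gene of the polymerase II kinase CDK12 was at 2.28 in the knockout and 2.33 in SiHa. Of the 13 listed in both tables, 11 had the higher ratio in the knockout, against 72.9% of all genes listed in both. In the super elongation complex the same 5 of 10 genes (50%) were listed in each table, at a median of 1.74 in the knockout and 1.38 in SiHa. Of these 5, 3 were above the median of all listed genes in the knockout and 5 in SiHa. ELL2 was at 2.25 in the knockout and 1.34 in SiHa, and AFF1 at 1.74 and 1.70 in the same order. MLLT1 was lower in the knockout, at 0.23 against 1.08 in SiHa, while 4 of the 5 had the higher ratio in the knockout. None of these factors reached HTATSF1 in either line.

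Among U2 snRNP and branch site genes other than HTATSF1, 12 of 22 were listed in the knockout and 14 in SiHa, at medians of 1.84 and 1.36. The listed shares were 54.5% and 63.6%, beside 21.2% and 27.0% of all genes tested in the same order. SF3B2 was at 3.47 in the knockout and 2.32 in SiHa, U2SURP at 3.38 and 1.97, and SF3B6, which lies at the branch adenosine, at 2.62 and 2.65, each in that order. SF3B1, the protein that HTATSF1 binds, was at 1.56 in the knockout and 1.39 in SiHa. Among second step and catalytic spliceosome genes, 23 of 31 (74.2%) were listed in the knockout and 19 (61.3%) in SiHa, at medians of 1.84 and 1.39. CDC5L, of the PRPF19 complex, was at 3.86 in the knockout and 2.29 in SiHa, and the step 1 factor gene CWC25 at 3.83 in the knockout and 1.71 in SiHa. CWC22, which brings the exon junction complex to the spliceosome, was at 3.66 in the knockout and 2.22 in SiHa. CRNKL1 was the highest of these other genes in SiHa at 2.41, and stood at 3.18 in the knockout. PRPF18, which acts in the same step as SLU7, was listed in the knockout alone, at 2.17. SLU7 exceeded all of these in both lines, and NKAP did so in the knockout alone.

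Around Notch, where NKAP is a corepressor, 10 of 15 other genes were listed in the knockout (median log2 ratio 2.07) and 12 in SiHa (1.12). The listed shares were 66.7% and 80%, beside 21.2% and 27.0% of all genes tested in the same order. The nuclear receptor corepressor gene NCOR1 was at 3.17 in the knockout and 2.30 in SiHa. CIR1 was at 3.15 in the knockout and 1.54 in SiHa. The coactivator gene MAML2 was at 2.37 in the knockout and 2.24 in SiHa, and the deacetylase gene HDAC2 at 2.37 and 1.81 in the same order. RBPJ, the DNA-binding factor of the pathway, and HDAC3, a deacetylase that NKAP binds, were listed in neither table. In SiHa NCOR1 and MAML2 stood above NKAP (2.19), and in the knockout no gene of this list did.

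**Figure D4:**
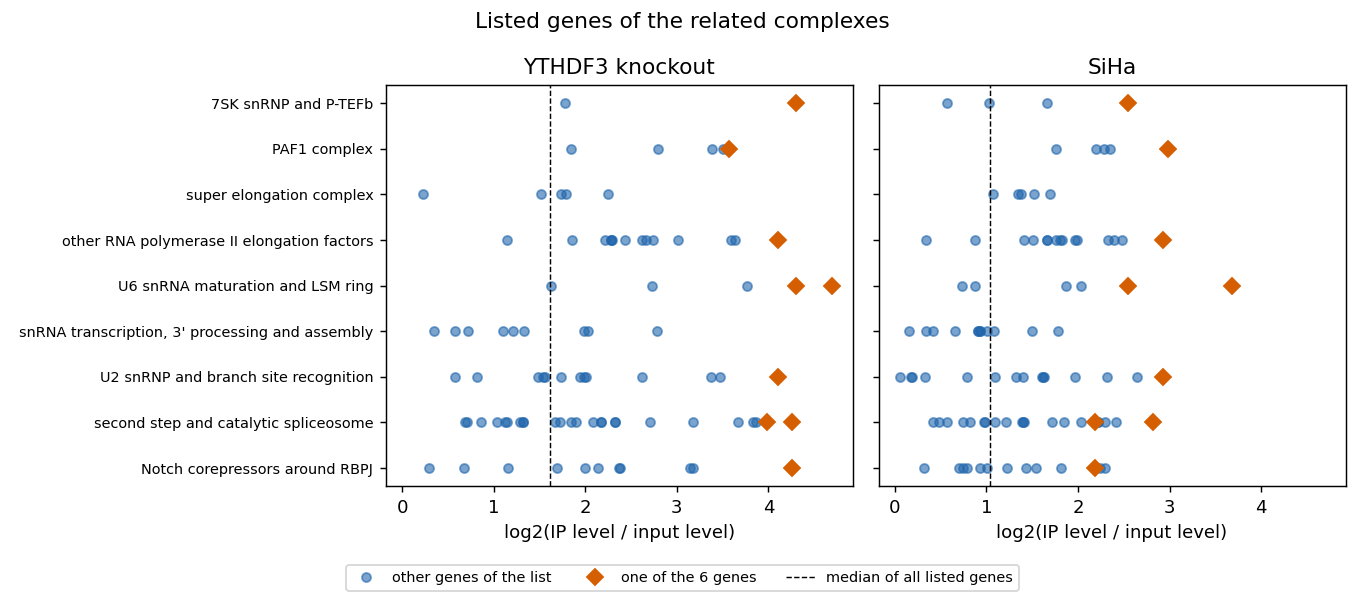
Log2 of IP level over input level for the listed genes of the 9 related gene lists (rows), in the knockout (left) and SiHa (right), with the 6 genes as orange diamonds, other genes as blue circles and the median of all listed genes dashed. The 4 other PAF1 complex genes all lie right of the dashed line in both lines, at 1.84 to 3.51 in the knockout and 1.76 to 2.35 in SiHa.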

How the data were processed

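RIP-seq was analysed for 4 human libraries, grouped by the sample titles. The tools include FastQC 0.11.7 and the builds are GRCh38 and hg38, per the submitters' processing notes. Aligner, counter and test: not given in the sources used here. The authors deposited, per the file headers, a log2 fold change, a p-value with its adjusted value, and 2 levels per gene, treated as a signal of unknown unit and depth. The deposited log2 fold exceeded the plain log2 ratio of the levels by a fixed amount, 0.81 in the knockout and 1.01 in SiHa, so the plain ratio was used. Numbers of genes tested were worked out from adjusted p over p, which makes ranks whole. Ranks, differences and distances were computed in Python 3.11.15 with pandas 2.3.3 and numpy 2.4.6, after tests on simulated data. No test was possible with 1 library per group. Locations and promoter sequences are RefSeq's (GRCh38.p14), matched by symbol for 6 of 6 genes. From each list, up to 4 genes with the largest fold per line could be named, with unlisted genes added after their values were seen. SF3B1 and PRPF18 were named outside this rule. The members and lists were chosen with earlier results of these data known. Alternatives were the deposited fold, a pseudocount of 1, centring and other sets of ranked genes. A gene first placed on the 7SK list was left out of the list and its counts, and is not reported here.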

Additional observations from a re-analysis of the deposited data

How the results depend on the processing

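The median log2 ratio of the 6 genes (4.18 in the knockout and 2.87 in SiHa) was 4.99 and 3.88 as the deposited log2 fold, 3.93 and 2.75 with a pseudocount of 1, and 2.57 and 1.84 centred on the listed genes, which follow from how each setting is built. Their median rank, as a percent of the ranked genes (0.24 in the knockout and 0.40 in SiHa), was 0.47 and 0.38 among genes at or above the median level, and the same at or above the median IP level, a setting chosen after seeing the data. It was 0.20 and 0.30 among protein-coding genes, 0.26 and 0.65 among genes listed in both tables, 0.29 and 0.49 at an authors' adjusted p of at most 0.05, and 0.41 and 0.29 with the pseudocount. NKAP is below the median level in SiHa, so 5 genes enter there. The median difference between the lines (1.18) was 0.99 with the deposited fold, 1.18 with the pseudocount and 0.60 centred. Among single genes only the input difference of NKAP changed sign, to 0.36 when centred on the genes listed in both, also added after seeing the data. The planned comparison of charged residues in the proteins was not run, as no protein sequences were used here. Unknown depth limits every value, and no counting interval is given. No paired analysis was possible because each group has 1 library.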
